A study of Mus musculus with 24 samples.

Results

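The 42 genes described here encode plasma proteins of the acute phase response, of complement and of coagulation, and the interleukin 6 signal that acts on them in the liver. They were chosen by name and matched exactly to the gene names of the array, as 4 serum amyloid A genes, 13 other acute phase carriers and inhibitors, 3 fibrinogen chains, 10 complement genes, 9 coagulation genes and 3 genes of cytokine signalling. They are 42 of the 20163 gene names tested in all. All 42 were on the array and passed the filter on dim probes, with 63 of their 65 probes, and the brightest probe of each was well above background on all 24 arrays.

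In infection or injury, interleukin 6 acts on hepatocytes through its receptor and the transcription factor STAT3, and interleukin 1 acts through NF-kappaB and factors of the C/EBP family. Together they raise the transcription of serum amyloid A, orosomucoids, hemopexin, fibrinogen and many complement genes, while SOCS3 dampens the signal. Coagulation factors and most complement components are made by hepatocytes as inactive precursors and are secreted into plasma at all times.

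RNA was measured in the livers of male C57Bl6J mice of the third generation of a pair of lineages, with 1 array in 1 colour per mouse, and the mice had been killed while fasting. The HFoleic group (8 mice) came from the lineage given high-oleic sunflower oil and was fed a diet high in fat and sucrose. The HFepa group (7 mice) ate the same obesogenic diet and came from the lineage given fish oil rich in eicosapentaenoic acid (EPA). The reference group (9 mice) belonged to the oleic lineage and ate a low-fat diet, so HFepa differs from it in diet and in lineage at once, and no low-fat EPA group was measured. Nothing in the labels says that mice of a group came from separate litters. Values are log2 signals after quantile normalization between arrays.

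Between 50.4% and 60.7% of 56605 probes per array were well above background, 0 spots were saturated, and arrays of a group correlated at 0.974 to 0.996. The 3 slides each held 8 arrays with mice of all 3 groups. All 10 hepatocyte markers were well above background on every array. Reference replicate 5 stood apart in markers of other cells: the summed signal of its 4 tested bile duct markers was 10788, against a median of 1953 in reference mice, that of its 8 stellate cell and fibroblast markers 62143 against 24259, and that of its 7 tested adipocyte markers 29692 against 10629. Adipoq and Epcam, which define adipocytes and bile duct cells, did not pass the filter. The part of these markers in the results was not tested. Values without this mouse are given below for Mbl2, Saa4, Itih4, Cfi, Cp, the count of genes past the threshold and the relation with Saa1.

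Mice of the same group differed most in Lcn2, Saa2, Saa1 and Orm3, and least in C3, Serpinc1, F2 and F12. The residual standard deviation (SD) within groups was 0.18 log2 units for the median tested probe and 0.23 for the median of the 42 genes. It was 1.18 for Lcn2, 1.01 for Saa2 and 0.96 for Saa1, each above 99% of all tested probes, and 0.65 for Orm3. In all, 12 of the 42 genes lay above 90% of tested probes. At the other end, 11 genes lay below 20% of tested probes, and 6 of these were coagulation genes. Neither end followed the roles throughout: Hp, an acute phase gene, had an SD of 0.11, whereas F11 (0.46) and C8b (0.43) lay above 90% of probes. The SD was 0.06 for C3, the central component of complement, 0.06 for Serpinc1 (antithrombin, the main inhibitor of thrombin) and 0.07 for F2 (prothrombin). Thus between the lowest and the highest HFoleic mouse Lcn2 differed 14.9-fold and Serpinc1 1.07-fold. These genes also differed in signal level. C3, Serpinc1, F2 and F12 were brighter than 99.97%, 99.81%, 99.66% and 97.7% of tested probes. For Lcn2, Saa2, Saa1 and Orm3 the share was 69.0%, 93.0%, 91.2% and 40.5%. The part of signal level and of the normalization between arrays in the spread was not tested.

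**Figure D1:**
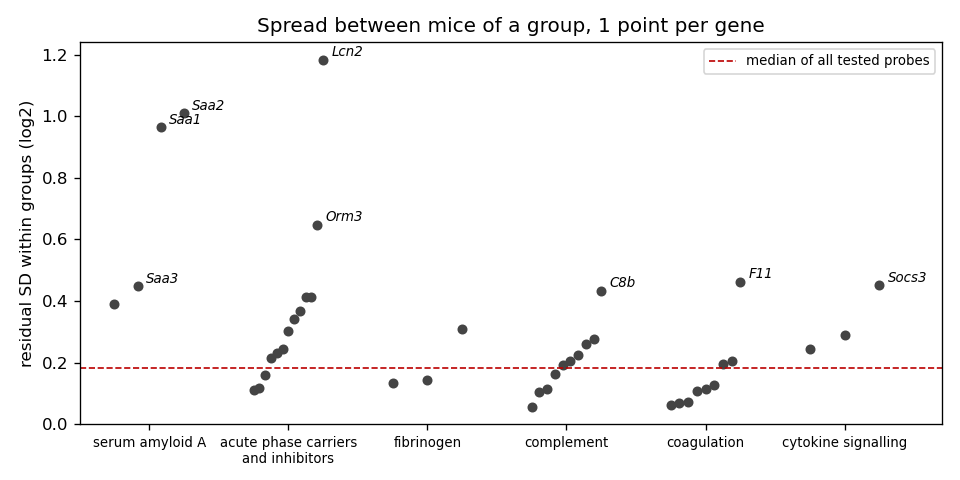
Residual standard deviation within groups (log2 units, vertical axis) of the brightest probe of each of the 42 genes, 1 point per gene, by role; the dashed line is the median of all tested probes, 0.18. Lcn2, Saa2, Saa1 and Orm3 lie far above the line, and most coagulation genes lie below it.

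Within the oleic lineage, HFoleic mice were set against reference mice to find what the obesogenic diet changed. Mbl2, Saa4, Itih4 and Cfi rose, and no gene of the 42 fell past the threshold. This made 4 of 42 genes called by limma at an adjusted p under 0.05, beside 8.08% of all tested genes (4.51% called higher and 3.57% lower). At an unadjusted p under 0.05 were 12 of 42 genes, beside 22.3% of all genes. A further look at direction alone found 34 of the 42 genes higher and 8 lower in HFoleic, against 48.4% of all genes higher. The median difference of the 42 genes was 0.13 log2 units, and that of all genes was -0.01. Without reference replicate 5 the count of calls was 5, with Cp added, and without reference replicate 8 it was 7, with Cfb, Mbl1 and Plg added. The rises of Mbl2, Itih4 and Cfi without reference replicate 5 were 0.50, 0.36 and 0.24. Calls over all probes also shifted when a mouse was left out, from 1610 to 3098, against 2171 with all mice. The 8.08% is therefore the share for the fit with all mice only. Markers of other cells also differed in this comparison: of 7 tested adipocyte markers 5 were lower and 1 (Cidec) was called lower, with a median of -0.27, and their summed signal ranged from 7016 to 29692 in reference and from 2925 to 19073 in HFoleic. Of 4 tested bile duct markers 1 (Sox9) was called lower, of 8 stellate cell markers 1 (Lrat) was called higher, and of 10 hepatocyte markers 1 (Asgr1) was called higher and 2 (Cps1 and Tat) lower. Their part in the differences of the 42 genes was not tested. In these whole-liver samples, a change in the number of cells that make a transcript and a change in the RNA per cell cannot be told apart.

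The second comparison, HFepa against reference, found 0 of the 42 genes past the threshold in limma, with 9 of 42 at an unadjusted p under 0.05, beside 0.392% of all tested genes called and 14% at the unadjusted level. The methods' t-test also called 0 of the 42. The smallest adjusted p was 0.0605, for Mbl2. Of the 42 genes, 30 were higher and 12 lower in HFepa, against 50.2% of all genes higher, with a median of 0.04. In the main fit 30 of the 42 also lay above the median difference of all probes, and 26 did under array medians. The mannose-binding lectin Mbl2 passed the threshold when HFepa replicate 3 (0.39, adjusted p = 0.0245) or reference replicate 8 (0.37, adjusted p = 0.0271) was left out, and Saa3 when reference replicate 4 was left out (0.91, adjusted p = 0.049).

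The third comparison, HFepa against HFoleic, addressed the lineage under the same diet. Limma called 0 of 42 genes, beside 0% of all tested genes, and the methods' t-test called 0 of the 42 as well. At an unadjusted p under 0.05 were 2 of 42 genes, beside 9.98% of all genes. Of the 42, 12 were higher and 30 lower in HFepa, against 51.9% of all genes higher, with a median of -0.07. The 3 comparisons share groups of mice, so their directions are not independent of each other.

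**Figure D2:**
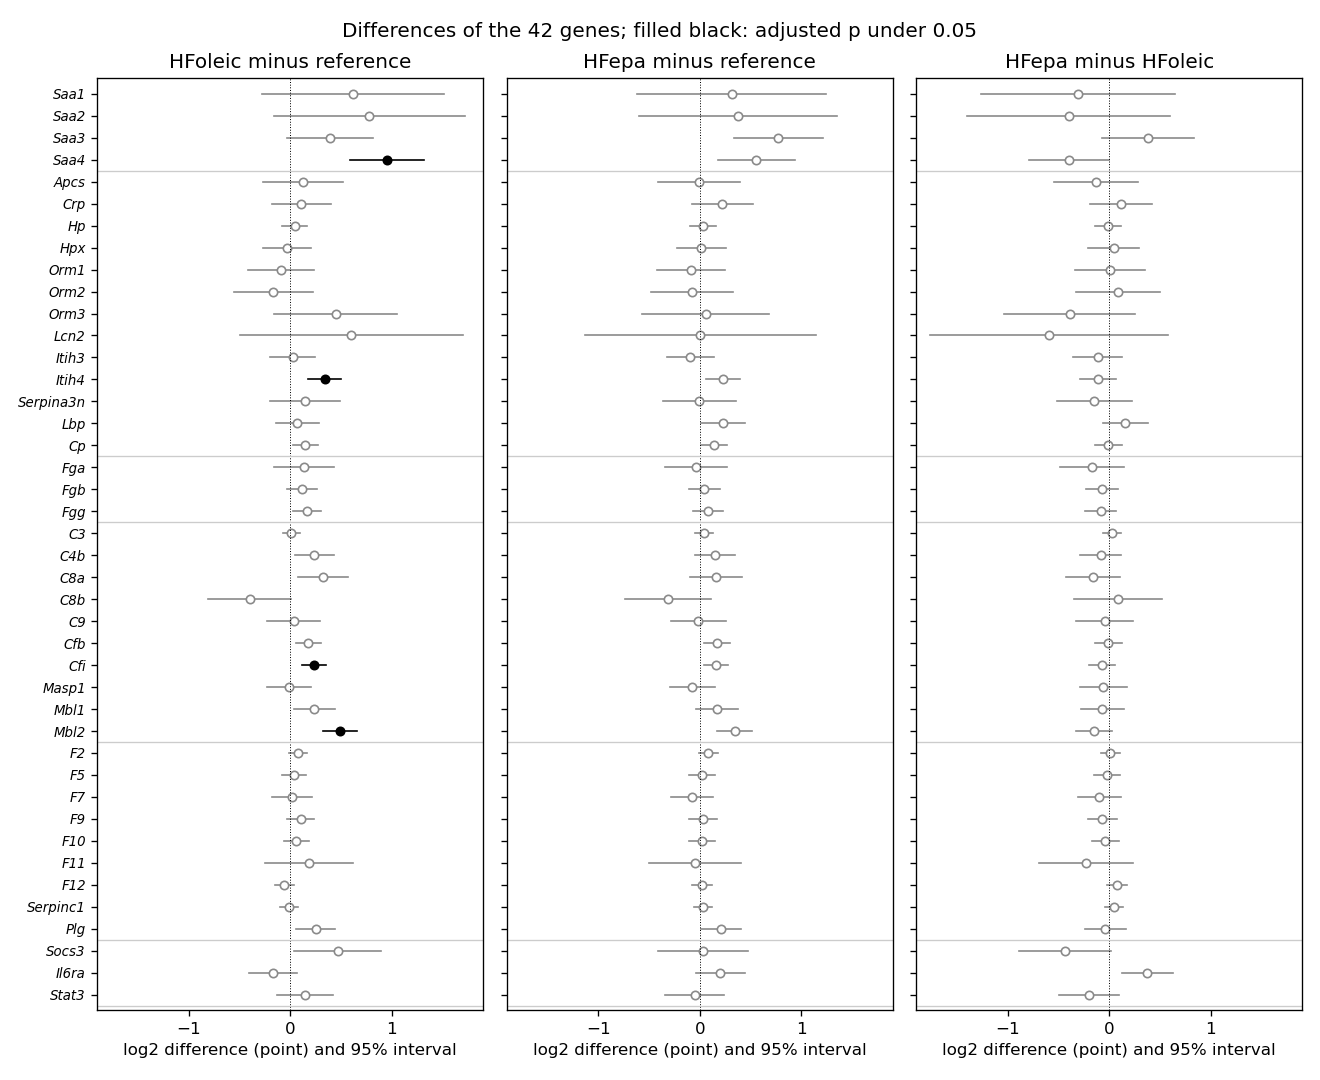
Difference of group means (log2, horizontal axis) with its 95% interval for each of the 42 genes, by role from top to bottom, in HFoleic minus reference, HFepa minus reference and HFepa minus HFoleic. Filled black points mark an adjusted p under 0.05, which are Saa4, Itih4, Cfi and Mbl2 in the left panel.

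Serum amyloid A proteins bind high-density lipoprotein. Saa1 and Saa2 are the main acute phase forms made by hepatocytes, Saa3 is made largely by macrophages and other cells outside the hepatocyte, and Saa4 is the constitutive form. Their 4 promoters, from 250 bases before to 50 bases after the transcription start, are shown because Saa1 and Saa2 varied together from mouse to mouse in all 3 groups. Sequences are from RefSeq on build GRCm38.p6, 5′ to 3′ along the gene, and capitals mark matches on either strand to the letters TTNNGNAA, a pattern of C/EBP sites. Saa1 lies at chr7:46742931-46743230 (minus strand), Saa2 at chr7:46751583-46751882 (plus strand), Saa3 at chr7:46715627-46715926 (minus strand) and Saa4 at chr7:46732554-46732853 (minus strand).
Saa1: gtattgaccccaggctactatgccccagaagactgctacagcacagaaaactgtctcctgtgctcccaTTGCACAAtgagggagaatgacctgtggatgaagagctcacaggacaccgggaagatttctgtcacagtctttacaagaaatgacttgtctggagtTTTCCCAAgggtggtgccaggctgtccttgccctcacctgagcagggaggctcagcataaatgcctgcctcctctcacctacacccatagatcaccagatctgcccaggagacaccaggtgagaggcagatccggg
Saa2: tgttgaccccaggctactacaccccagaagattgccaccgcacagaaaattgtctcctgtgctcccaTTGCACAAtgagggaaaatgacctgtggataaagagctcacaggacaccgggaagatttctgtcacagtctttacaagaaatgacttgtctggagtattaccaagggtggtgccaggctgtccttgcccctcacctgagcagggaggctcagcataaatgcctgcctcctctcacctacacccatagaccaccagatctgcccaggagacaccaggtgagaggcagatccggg
Saa3: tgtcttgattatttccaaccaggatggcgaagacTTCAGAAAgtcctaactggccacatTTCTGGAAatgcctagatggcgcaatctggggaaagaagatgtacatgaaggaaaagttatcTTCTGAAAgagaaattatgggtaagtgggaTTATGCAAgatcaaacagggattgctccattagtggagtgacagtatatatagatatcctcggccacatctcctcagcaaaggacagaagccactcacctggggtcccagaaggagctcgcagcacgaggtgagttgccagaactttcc
Saa4: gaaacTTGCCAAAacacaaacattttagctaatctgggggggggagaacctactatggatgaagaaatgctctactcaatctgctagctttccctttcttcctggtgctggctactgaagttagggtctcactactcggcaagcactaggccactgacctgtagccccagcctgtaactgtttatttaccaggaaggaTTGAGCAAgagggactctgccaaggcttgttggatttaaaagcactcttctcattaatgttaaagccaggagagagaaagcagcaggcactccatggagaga
The Saa1 and Saa2 windows were identical at 287 of 301 aligned columns (95.3%), whereas the other pairs of windows shared 48.4% to 54.2%. The match at position -182 of Saa1 recurred at -183 of Saa2 with the letters TTGCACAA. The second Saa1 match, TTTCCCAA at -86, had no counterpart in Saa2, and Saa3 held 4 matches and Saa4 held 2.

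Saa1 was 11.81 in the lowest, 11.98 in the median and 14.26 in the highest reference mouse. The corresponding Saa1 values were 11.55, 12.92 and 15.31 in HFoleic, and 11.77, 12.71 and 14.54 in HFepa. The groups overlapped, and the highest mice were HFoleic replicate 2, HFepa replicate 4 and reference replicate 5. Between HFoleic and reference, Saa1 differed by 0.62 ± 0.44 (SE; adjusted p = 0.449), with a 95% interval from -0.28 to 1.52. Leaving out 1 of the 24 mice at a time gave 0.30 to 0.85. Between HFepa and HFoleic, the difference was -0.30 (95% interval -1.26 to 0.65), and it was -1.20, -0.18 and 0.71 within the 3 slides. Without HFoleic replicate 2 that difference was 0.017.

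Saa2 behaved like Saa1, with 11.99, 12.51 and 14.76 in the lowest, median and highest reference mouse. Its values were 12.08, 13.56 and 15.83 in HFoleic and 12.11, 13.18 and 15.17 in HFepa. The same 3 mice were the highest of their groups, and no comparison passed the threshold. HFoleic differed from reference by 0.78 ± 0.46 (adjusted p = 0.346) and HFepa from HFoleic by -0.40 ± 0.49 (adjusted p = 0.839). With 1 of the 24 mice left out at a time, the Saa2 difference between HFoleic and reference was 0.46 to 1.02. Saa1 and Saa2 in HFepa differed from reference by 0.32 and 0.38, with adjusted p-values of 0.831 and 0.8. Without HFepa replicate 4 these became 0.02 and 0.05. The genes are near-identical copies, so the signals of Saa1 and Saa2 are uncertain and may be shared in part.

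Saa3 was 9.38 in the lowest, 9.73 in the median and 10.90 in the highest reference mouse. It was 9.65, 10.25 and 10.72 in HFoleic and 10.005, 10.65 and 11.55 in HFepa. All 7 HFepa mice lay above the reference mean, and 2 lay above reference replicate 4, the highest reference mouse. The difference between HFepa and reference was 0.77 ± 0.21, or 1.71-fold (unadjusted p = 0.00128, adjusted p = 0.0978), and it was 1.26, 0.83 and 0.27 within the slides. Between HFoleic and reference Saa3 differed by 0.39 ± 0.20 (adjusted p = 0.279), and between HFepa and HFoleic by 0.38 ± 0.22 (adjusted p = 0.588). Markers of macrophages and Kupffer cells, the resident macrophages of the liver, moved in the same direction in HFepa against reference. Of these, 11 of 11 tested were higher, beside 50.2% of all genes, and 0 were called, beside 0.392%. The median difference of these markers was 0.25. Their summed signal ranged from 21220 to 63567 in reference and from 31719 to 58479 in HFepa, and their part in the Saa3 values was not tested.

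Saa4 showed the widest change among the called genes. It was 10.65, 11.45 and 12.29 in the lowest, median and highest reference mouse, and 12.17, 12.36 and 12.92 in HFoleic. All 8 HFoleic mice lay above the reference mean, and 5 lay above the highest reference mouse. Saa4 rose by 0.95 ± 0.18, or 1.94-fold (adjusted p = 0.00238), with 1.12, 1.02 and 0.68 within the slides and 0.92 without reference replicate 5. In HFepa, Saa4 was 11.71, 11.88 and 12.63, between the other groups. It differed from reference by 0.56 ± 0.18 (adjusted p = 0.16) and from HFoleic by -0.40 ± 0.19 (adjusted p = 0.508), and 5 of 7 HFepa mice lay below the lowest HFoleic mouse.

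**Figure D3:**
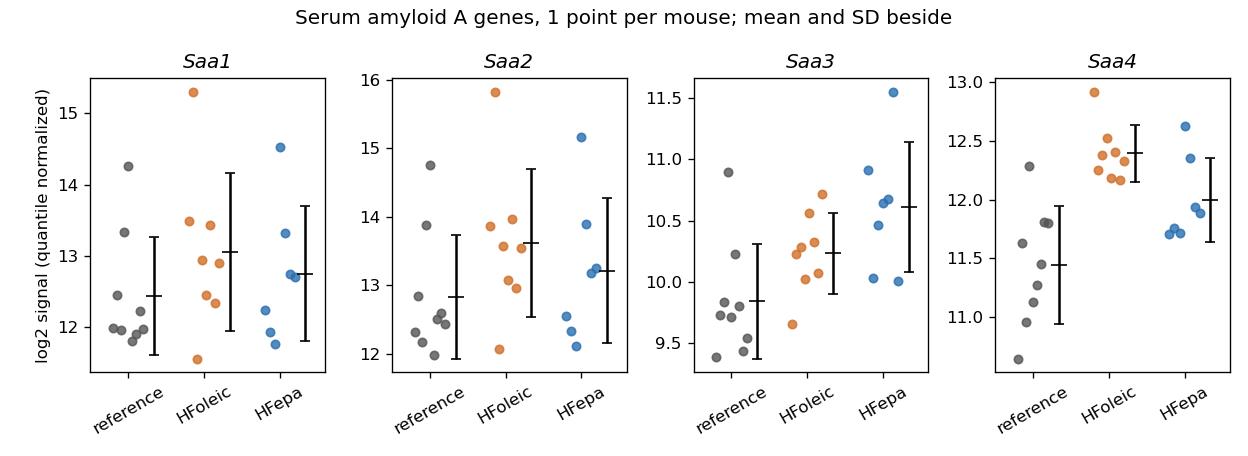
Log2 signal (vertical axis, own scale in each panel) of Saa1, Saa2, Saa3 and Saa4 in each mouse, by group, with the mean and SD beside the points. Saa1 and Saa2 spread widely with the same mice on top, and Saa4 in the 8 HFoleic mice lies between 12.17 and 12.92 against 10.65 to 12.29 in reference.

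Among the 13 other acute phase genes, Itih4 rose in HFoleic, and the other 12 did not pass the threshold in any comparison. The 1 call against reference made 7.69% of the 13, beside 8.08% of all tested genes. Itih4, an inter-alpha-trypsin inhibitor heavy chain that is cleaved by kallikrein, was 16.54, 16.76 and 16.87 in the lowest, median and highest reference mouse. It was 16.80, 17.03 and 17.42 in HFoleic and 16.83, 16.92 and 17.18 in HFepa. The ranges of HFoleic and reference overlapped in 1 HFoleic mouse, and 7 of 8 lay above all reference mice. The rise was 0.34 ± 0.08, or 1.27-fold (adjusted p = 0.00893), with 0.60, 0.16 and 0.23 within the slides. The call was lost under array medians in place of quantile normalization (0.31, adjusted p = 0.0525). The second Itih4 probe gave 0.39 (adjusted p = 0.081), which did not pass. In HFepa, Itih4 differed from reference by 0.23 ± 0.08 (adjusted p = 0.193). Its neighbour Itih3, another heavy chain, differed by 0.02 between HFoleic and reference.

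Differences were small in the pentraxins and heme carriers. Hp (haptoglobin, which binds free hemoglobin) and Hpx (hemopexin, which binds heme) differed by 0.04 and -0.03 between HFoleic and reference. Apcs (serum amyloid P) and Crp (C-reactive protein), the short pentraxins, differed by 0.12 and 0.11. Lbp, which carries bacterial lipopolysaccharide to CD14, differed by 0.07 in HFoleic and 0.23 in HFepa against reference (adjusted p = 0.762 and 0.342). Serpina3n, a serine protease inhibitor, differed by 0.14 in HFoleic. Cp (ceruloplasmin, the copper carrier of plasma) was measured by 5 tested probes that disagreed in direction between HFoleic and reference, from -0.46 (adjusted p = 0.0536) to 0.15 for the brightest (adjusted p = 0.15). The brightest probe was called without reference replicate 5 (0.19, adjusted p = 0.0313).

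Lcn2 encodes lipocalin 2, which binds bacterial siderophores and is released by hepatocytes and neutrophils. It had the widest spread of the 42 genes, with 8.51, 8.99 and 12.36 in the lowest, median and highest reference mouse. Lcn2 was 8.58, 9.49 and 12.47 in HFoleic and 8.34, 9.31 and 11.24 in HFepa. The highest mouse was again reference replicate 5, HFoleic replicate 2 and HFepa replicate 4. Differences between groups were 0.60 ± 0.53, 0.01 ± 0.55 and -0.59 ± 0.57 for HFoleic against reference, HFepa against reference and HFepa against HFoleic, all smaller than the spread between mice.

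The orosomucoids are carriers of lipophilic compounds encoded by 3 neighbouring genes. The probes of Orm1 and Orm3 are shown because they are alike: 46 of 52 aligned bases were the same (88.5%), so the signals of both genes are uncertain. Probe coordinates are of build mm9, plus strand, and each 60-base probe covers a longer span (1644 and 1484 bases), at chr4:63007395-63009038 for Orm1 and chr4:63018910-63020393 for Orm3, and capitals mark the bases that both share.
Orm1: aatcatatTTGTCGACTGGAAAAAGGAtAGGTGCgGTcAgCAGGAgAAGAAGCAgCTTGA
Orm3: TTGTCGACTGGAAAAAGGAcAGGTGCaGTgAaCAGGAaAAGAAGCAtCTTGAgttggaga
Orm3 ranged from 6.47 to 8.55 in reference, 7.04 to 8.91 in HFoleic and 6.79 to 8.38 in HFepa. Orm1 ranged from 14.64 to 15.43, 14.53 to 15.95 and 14.82 to 15.24, and Orm2 from 13.22 to 14.22, 12.95 to 14.83 and 13.45 to 14.00. The groups overlapped for each of the 3 genes. Between HFoleic and reference, Orm1, Orm2 and Orm3 differed by -0.09, -0.17 and 0.45, with adjusted p-values of 0.812, 0.682 and 0.414.

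Complement held 2 of the 4 called genes, and 8 of its 10 genes were higher in HFoleic than in reference, beside 8.08% of all genes called and 48.4% higher. Mbl2, a mannose-binding lectin that starts the lectin pathway on microbial sugars, was 15.50, 15.80 and 15.97 in the lowest, median and highest reference mouse and 16.08, 16.29 and 16.48 in HFoleic. These ranges did not overlap. Mbl2 rose by 0.49 ± 0.08, or 1.41-fold (adjusted p = 0.00103), with 0.67, 0.43 and 0.37 within the slides. In HFepa, Mbl2 was 15.82, 16.18 and 16.37. It differed from reference by 0.34 ± 0.08 (adjusted p = 0.0605), with 5 of 7 mice above all reference mice, and from HFoleic by -0.15 ± 0.09 (adjusted p = 0.588).

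Cfi, the protease factor I that cleaves C3b and C4b and so limits the cascade, was 15.37, 15.64 and 15.76 in reference and 15.74, 15.82 and 16.05 in HFoleic. Of the HFoleic mice, 7 of 8 lay above all reference mice. Cfi rose by 0.23 ± 0.06, or 1.18-fold (adjusted p = 0.0121), with 0.36, 0.11 and 0.20 within the slides. The call was lost under array medians in place of quantile normalization (0.18, adjusted p = 0.0932) and with the processed signal (0.16, adjusted p = 0.154). In HFepa, Cfi was 15.60, 15.81 and 15.87 and differed from reference by 0.16 ± 0.06 (adjusted p = 0.207).

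Cfb, the factor B protease of the alternative pathway, came next, with 15.39, 15.66 and 15.84 in reference and 15.69, 15.82 and 15.94 in HFoleic. All 8 HFoleic mice lay above the reference mean, but 5 lay inside the reference range. The difference of 0.18 ± 0.06 had an adjusted p of 0.0749. Cfb passed without reference replicate 6 (0.20, adjusted p = 0.0418) or 8 (0.19, adjusted p = 0.0418).

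The other 7 complement genes gave values without a call. Mbl1, the other mannose-binding lectin, differed by 0.24 between HFoleic and reference (adjusted p = 0.149), and C4b, which is cleaved in the classical and lectin pathways, by 0.24 (adjusted p = 0.131). C8a and C8b encode chains of the membrane attack complex, and their differences were 0.32 (adjusted p = 0.111) and -0.40 (adjusted p = 0.244). C9, which forms the pore of that complex, differed by 0.03, C3 by 0.01 and Masp1, a protease of the lectin pathway, by -0.01. The 4 tested Masp1 probes disagreed in direction, from -0.12 to 0.19. C3 ranged from 18.04 to 18.27 over all 24 mice.

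**Figure D4:**
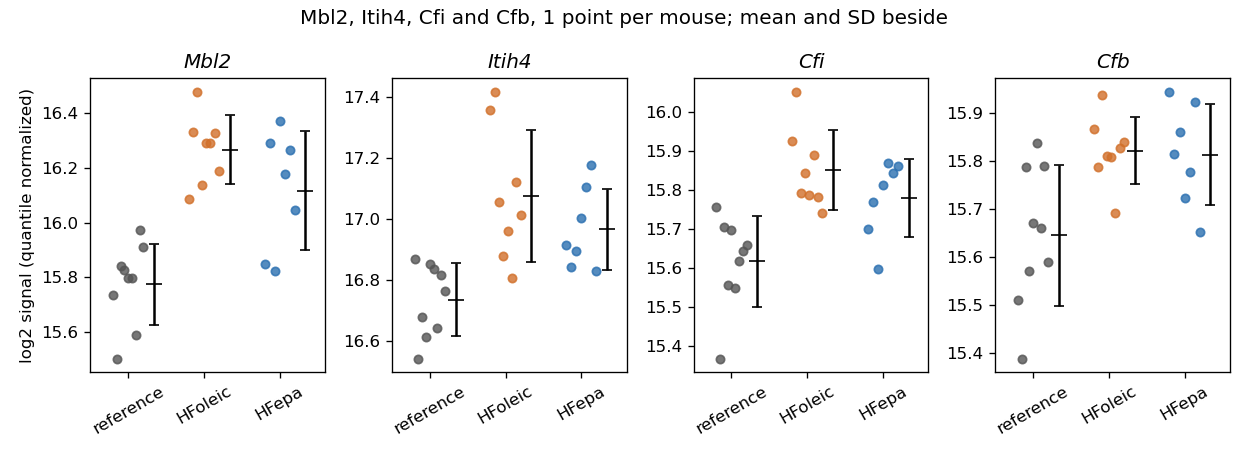
Log2 signal (vertical axis, own scale in each panel) of Mbl2, Itih4, Cfi and Cfb in each mouse, by group, with the mean and SD beside the points. The Mbl2 points of HFoleic (16.08 to 16.48) lie wholly above those of reference (15.50 to 15.97), and the HFepa mean of each gene lies between the means of the other groups.

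The fibrinogen chains Fga, Fgb and Fgg, which form the clot once cut by thrombin, differed by 0.13, 0.11 and 0.16 between HFoleic and reference, and the smallest adjusted p was 0.158. In HFepa they differed from reference by -0.04, 0.05 and 0.08. Reference replicate 2 stood far above the other reference mice in Fga, at 14.78 against a median of 13.75. The smallest adjusted p for a fibrinogen chain was 0.696 in HFepa against reference and 0.744 in HFepa against HFoleic.

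Of the 9 coagulation genes, limma called 0 in any comparison. Of all tested genes it called 8.08% in HFoleic against reference, 0.392% in HFepa against reference and 0% between the lineages. At an unadjusted p under 0.05 was 1 of the 9 in each comparison with reference, beside 22.3% (HFoleic) and 14% (HFepa) of all genes. The 1 coagulation gene was Plg, plasminogen, the precursor of the enzyme that dissolves fibrin. It was 10.82, 11.22 and 11.54 in reference, 11.14, 11.40 and 11.92 in HFoleic and 11.11, 11.47 and 11.52 in HFepa. The groups overlapped, and the differences from reference were 0.25 ± 0.09 in HFoleic (adjusted p = 0.105) and 0.21 ± 0.10 in HFepa (adjusted p = 0.334). Without reference replicate 8 the HFoleic difference was 0.29 (adjusted p = 0.0395).

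The intervals of the most constant coagulation genes were narrow. F2 (prothrombin) differed by 0.07 in HFoleic and 0.08 in HFepa against reference. F12 and Serpinc1 differed by -0.06 and -0.01 in HFoleic. F5, F7, F9 and F10, the vitamin K dependent factors among them being F7, F9 and F10, differed by 0.04, 0.02, 0.10 and 0.06. F11, which is activated by thrombin and by factor XIIa, had the widest spread of the group, from 10.49 to 11.81 in reference and 10.53 to 12.11 in HFoleic, and differed by 0.19.

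Of the 3 genes of cytokine signalling, Il6ra encodes the ligand-binding chain of the interleukin 6 receptor. By the brightest probe of each gene, Il6ra had the smallest p-value of the 42 genes between the lineages. It was 12.52, 12.82 and 13.04 in the lowest, median and highest HFoleic mouse, 12.89, 13.20 and 13.43 in HFepa and 12.63, 12.91 and 13.39 in reference. Of 7 HFepa mice, 5 lay above all HFoleic mice. The difference was 0.38 ± 0.12, or 1.30-fold (unadjusted p = 0.00484, adjusted p = 0.291), and it was 0.32, 0.47 and 0.20 within the slides. It did not pass the threshold over all probes. The second Il6ra probe gave 0.11. A dimmer Masp1 probe had a smaller p-value in limma between the lineages (-0.38, unadjusted p = 0.00452, adjusted p = 0.286). The brightest Masp1 probe gave -0.06.

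Socs3, the feedback inhibitor of the interleukin 6 receptor complex, was 9.92, 11.11 and 11.56 in HFoleic and 10.04, 10.58 and 10.75 in HFepa. The HFepa mice lay inside the range of the HFoleic mice. The difference was -0.43 ± 0.22 (adjusted p = 0.537), and it was -0.96, 0.03 and -0.25 within the slides. Against reference, Socs3 in HFoleic differed by 0.47 ± 0.21 (adjusted p = 0.187). Stat3 differed by 0.15 between HFoleic and reference and by -0.20 between the lineages.

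To ask which genes rose and fell with Saa1 from mouse to mouse, each of the other 41 genes was compared with Saa1 over 24 mice after the group means had been removed. By a permutation test within groups, adjusted over the 41 relations, 8 genes passed by Pearson's r, all with a positive r, and 7 of these also passed by Spearman's rho. Saa2 followed Saa1 most closely, with r = 0.99 and rho = 0.97. Lcn2 had r = 0.94 and rho = 0.89, and Orm3 had r = 0.86 and rho = 0.86. The permutation p of these 3 genes was 1e-05 for both measures, the smallest that the resamples can give, and 0.000137 after adjustment. As stated above, the signals of Saa1 and Saa2 may be shared in part, and those of Orm1 and Orm3 are uncertain. The part of this in the relations was not tested.

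The other 5 genes were weaker. C4b had r = 0.73 (permutation p = 0.00024, adjusted 0.00197) and rho = 0.58 (adjusted permutation p = 0.0447). Orm1 and Orm2 had r = 0.71 and r = 0.70, with rho = 0.64 and rho = 0.59 and adjusted permutation p-values of 0.000717 and 0.00219 for r. Hpx had r = 0.66 (adjusted permutation p = 0.00527), but its rho of 0.45 did not pass (adjusted permutation p = 0.109). Serpina3n had r = 0.59 (adjusted permutation p = 0.0219) and rho = 0.65.

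Without HFepa replicate 4 and HFoleic replicate 2, whose Saa1 signals lay farthest from the median signal, r was 0.99 for Saa2, 0.92 for Lcn2 and 0.84 for Orm3. It was 0.55 for C4b, 0.59 for Orm1, 0.58 for Orm2, 0.57 for Hpx and 0.49 for Serpina3n. By the deviation from the group mean, the farthest mice were HFoleic replicate 2 and reference replicate 5, and this pair was chosen after seeing the data. Without them r was 0.99 for Saa2, 0.90 for Lcn2, 0.82 for Orm3, 0.61 for C4b, 0.52 for Orm1, 0.50 for Orm2 and 0.64 for Serpina3n. For Hpx it fell to 0.34, so its relation rested in part on these mice, and for Saa4 it was 0.69. Within the 3 slides, r was 0.77 to 0.98 for Lcn2 and 0.84 to 0.95 for Orm3. For Orm1 it was 0.86, 0.14 and 0.35, for Orm2 0.89, -0.08 and 0.29, and for Hpx 0.77, -0.38 and 0.25. For C4b it was 0.89, 0.85 and 0.17, and for Serpina3n 0.58, 0.43 and 0.38. Slide 1 held both HFoleic replicate 2 and reference replicate 5. Within reference, HFoleic and HFepa, r was 0.66, 0.91 and 0.26 for Orm1, 0.66, 0.94 and 0.11 for Orm2, and 0.67, 0.88 and 0.70 for Hpx. In the same order it was 0.28, 0.92 and 0.79 for C4b and 0.17, 0.84 and 0.54 for Serpina3n. Without reference replicate 5, 10 genes passed by r, and r of Lcn2 and Orm3 was 0.94 and 0.83.

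Several acute phase genes did not pass. Saa3 had r = 0.12 and Saa4 r = 0.35, with adjusted permutation p-values of 0.831 and 0.244. Within groups, r of Saa4 with Saa1 was 0.19 in reference, 0.11 in HFoleic and 0.96 in HFepa, a difference that was not tested. Mbl2, the gene with the smallest p-value in the diet comparison, had r = 0.17. For Fga, Fgb and Fgg, r was 0.03, 0.12 and 0.09, and for Socs3 it was -0.02. In total 30 of the 41 genes had a positive and 11 a negative r, down to -0.40 for Serpinc1.

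In both obesogenic groups, the mouse with the highest Saa1 also had the highest signals of neutrophil and macrophage markers. HFoleic replicate 2 and HFepa replicate 4 were the highest of their groups for the summed signal of 7 tested neutrophil markers (2258 against a median of 1423, and 2102.5 against 1377) and for macrophage markers (49184 against 41786, and 58479 against 41077). HFepa replicate 4 was also the highest of its group for adipocyte markers (12169 against a median of 6549) and bile duct markers (3372 against 2005), whereas HFoleic replicate 2 ranked 5 and 6 of 8 for these. Reference replicate 5 ranked 3 of 9 for neutrophil markers and 1 of 9 for macrophage markers. The neutrophil genes Ngp, Ltf and Retnlg did not pass the filter. The part of these cells in the relation with Saa1 was not tested.

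**Figure D5:**
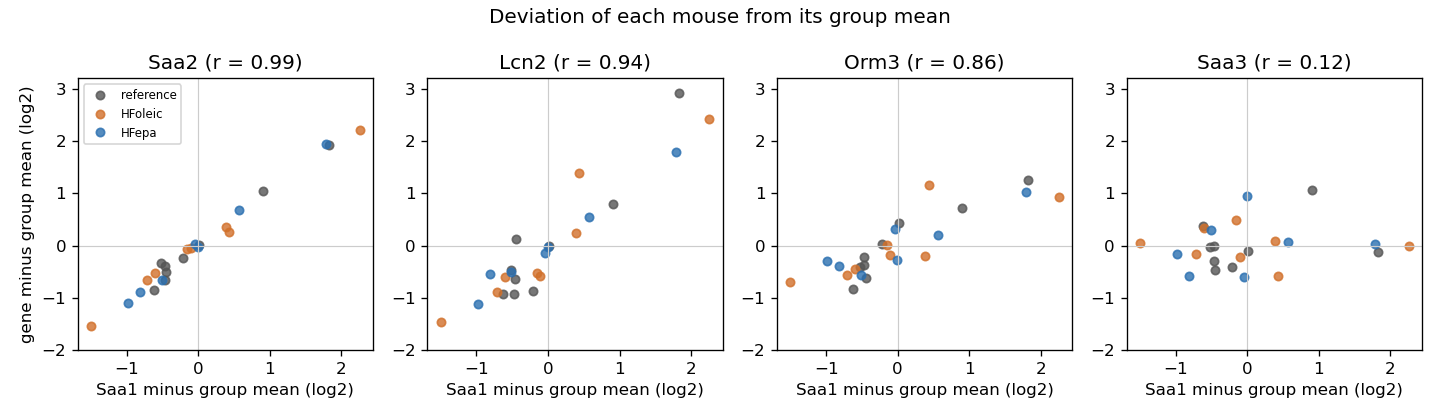
Deviation of each mouse from its group mean (log2) for Saa1 (horizontal axis) and for Saa2, Lcn2, Orm3 and Saa3 (vertical axis), 1 point per mouse coloured by group. Saa2, Lcn2 and Orm3 rise with Saa1 (r = 0.99, 0.94 and 0.86), whereas Saa3 does not follow it (r = 0.12).

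Over the 28080 tested probes without a missing value, which include loci without a gene name, Saa2 had the highest r with Saa1. Lcn2 and Orm3 came next. The 3 genes after them were Aldh1l1 (r = 0.84), an enzyme of folate metabolism, Mmd2 (r = 0.84) and Tmem176a (r = 0.84), given as a description with no test. C4b ranked 44, Orm1 82, Orm2 94, Hpx 223 and Serpina3n 583.

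Genes of the same pathways that were not among the 42 were read from lists chosen with earlier results of these data known. In HFoleic against reference, 1 of 20 other acute phase genes was called, Steap4, a metalloreductase, which was higher by 0.95 ± 0.20 (adjusted p = 0.00602). Of 9 negative acute phase genes, whose products fall in an acute phase response, 1 was called: Serpina6 (corticosteroid-binding globulin) was higher by 1.03 ± 0.19 (adjusted p = 0.00246). Of 29 other cytokine signalling genes, 1 was called: Bcl3, a nuclear partner of NF-kappaB, was higher by 0.63 ± 0.14 (adjusted p = 0.00782). These counts are 5%, 11.1% and 3.45% of the lists, beside 8.08% of all tested genes.

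Among 30 other complement genes, 3 rose (10%, beside 8.08% of all tested genes) and 0 fell. Of these, Cd59a (an inhibitor of the membrane attack complex) rose by 0.25 and Itgam (a chain of a complement receptor) by 0.49, with adjusted p-values of 0.0129 and 0.0251. Among 26 other coagulation and fibrinolysis genes, 6 rose and 0 fell, or 23.1%, beside 8.08% of all tested genes. These were Serpina10 (the protein Z dependent inhibitor, by 0.44), Proz (protein Z, by 0.23), Serpind1 (heparin cofactor II, by 0.28), Serpinf2 (antiplasmin, by 0.32), Ggcx (gamma-glutamyl carboxylase, by 0.29) and Vkorc1 (vitamin K epoxide reductase, by 0.21). Of the 6, 4 are inhibitors or their cofactor, and Ggcx and Vkorc1 serve the vitamin K dependent carboxylation of coagulation factors. The adjusted p-values of these 6 genes lay between 0.0135 and 0.0335. In HFepa, none of these 5 lists held a called gene by limma, beside 0.392% of all genes against reference and 0% against HFoleic. At an unadjusted p under 0.05 against reference were 4 of 20, 2 of 9, 5 of 29, 5 of 30 and 5 of 26, beside 14% of all genes. The lists are in the order given above. Against HFoleic these counts were 2 of 20, 1 of 9, 5 of 29, 0 of 30 and 5 of 26, beside 9.98% of all genes.

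Promoter windows of 300 bases were held for 34 of the 42 genes. The letters TTCNNNGAA, a pattern of STAT sites searched on both strands, were in 7 of 35 windows (20%), against 8.3% of 32851 windows of all genes. They were in Apcs, Fga, Fgb, C8a, Socs3, Itih4 and F9, and not in a window of Saa1 to Saa4, Lcn2 or Orm1 to Orm3 that was held. The letters TTNNGNAA were in 23 of 35 windows (65.7%), against 40.7% of all. A pattern of NF-kappaB sites was in 1 of 35 windows, that of Serpina3n, against 1.63% of all. Itih4 is shown because it was called and holds a STAT match, in capitals at -51 with TTCCGAGAA. Also in capitals are the letters TTTATA, the reverse complement of TATAAA, which run from -3 to 2 and so span the transcription start. The window lies at chr14:30886226-30886525 (GRCm38.p6, plus strand).
Itih4: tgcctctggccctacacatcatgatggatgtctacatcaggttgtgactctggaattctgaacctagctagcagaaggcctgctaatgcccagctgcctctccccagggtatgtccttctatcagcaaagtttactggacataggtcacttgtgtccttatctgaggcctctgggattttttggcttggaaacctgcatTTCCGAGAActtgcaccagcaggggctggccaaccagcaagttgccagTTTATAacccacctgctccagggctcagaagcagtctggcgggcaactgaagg
Matches to different patterns were allowed to overlap. A match describes letters in a window and is not a measurement of binding.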

How the data were processed

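Liver RNA of 24 mice was measured on 1-colour Agilent arrays. The authors deposited scanner files made with Agilent Feature Extraction (10.10.1.1 in the submitters' processing notes), whose median signal intensity per spot was used. They also deposited a table of log2 values, which served as an alternative. The deposited marks, 0 or 1 per spot, for outliers, saturation and signal well above background were used as filters.

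Outlier spots were left out, spots of a probe averaged, and probes kept where well above background on at least 75% of arrays of 1 group or more (29958 of 56605). Log2 intensities were quantile normalized and fitted with limma (3.58.1, R 4.3.3) as group means over all 24 arrays, with Benjamini-Hochberg adjustment over all tested probes and a threshold of 0.05. A gene was read from its brightest tested probe. The fit was tested on simulated data. The number of arrays limits the precision, and p-values measure only the spread between these samples. Relations with Saa1 were tested with 100000 resamples within groups (numpy 2.4.6, scipy 1.17.1). No column of other samples was found (0).

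Genes named with full statistics were those called, the 4 serum amyloid A genes and, where fewer than 5 were called, the 5 with the smallest p-values; pathway genes were named when called, except for a result that is not reported here, and the 5 probes most like Saa1 were named. The members and lists were chosen with earlier results of these data known. Alternatives were the authors' log2 table, processed signals, normexp background, array medians, other filters, slide, slide row and replicate number as blocks, array weights, the methods' t-test, the mean over probes, and each mouse left out. Promoters came from RefSeq (GRCm38.p6) and probe coordinates from the scanner files (mm9).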

Additional observations from a re-analysis of the deposited data

Results flagged for a closer look

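Among the 126 sets of values (42 genes in 3 groups), 11 held a mouse whose gap to the nearest mouse was large for the range of its group, where chance gives about 1 in 20, or 6.3. Reference replicate 5 was the lowest reference mouse for Crp (8.73, next 9.44) and the highest for Lcn2 (12.36, next 10.23) and C3 (18.27, next 18.14). Reference replicate 2 was highest for Fga (14.78), and reference replicate 8 lowest for F12 (14.83).

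HFepa replicate 4, the HFepa mouse with the highest Saa1, was the lowest of its group for 5 of the 11: Itih3 (15.21), C3 (18.09), C8b (12.64), F10 (15.41) and Plg (11.11). HFepa replicate 1 was lowest for F9 (12.64). These mice were chosen by their values, and no cause was tested.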

How the results depend on the processing

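Mbl2 and Saa4 passed the threshold between HFoleic and reference under all 12 alternatives and in all 24 fits that left out 1 mouse. In that comparison, leaving out a mouse gave 4 to 7 called genes of the 42 (7 without reference replicate 8) and 1610 to 3098 called probes. Array medians gave 2 genes. Between HFepa and reference, where 119 probes were called, the count was 60 with processed signals, 55 with the mean over probes, and 0 with no filter on dim probes or the methods' t-test. Leaving out a mouse gave 0 to 505 probes there (505 without reference replicate 8, 0 without HFepa replicate 2 or 6) and 0 to 1 genes of the 42. Between HFepa and HFoleic, array weights gave 68 called probes, the mean over probes 1, and leaving out a mouse 0 to 15 (15 without HFepa replicate 5), while 0 of the 42 genes were called in each. With processed signals, 5 genes passed in the relation with Saa1, and leaving out a mouse gave 7 to 10. The Saa1 difference between HFepa and HFoleic was -0.60 to 0.017 when a mouse was left out, and turned to 0.017 without HFoleic replicate 2. Except where stated, the cause was not tested.

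The replicate numbers are shared between groups, and the labels do not say what they mark, so the mice were not treated as pairs. Correlations of same-numbered mice were above 0.1 in 2 of 8 pairs of HFoleic and reference. They were above 0.1 in 3 of 7 pairs of HFepa and reference, up to 0.349, and in 0 of 7 pairs of HFepa and HFoleic. So few pairs cannot show whether the numbers mark a shared litter or batch. With the replicate number as a block, 1060 probes and 2 of the 42 genes were called between HFoleic and reference, and 3 probes between HFepa and reference. The block kept Mbl2 (0.51, adjusted p = 0.0115) and Saa4 (0.999, adjusted p = 0.0215), and gave Itih4 0.35 (adjusted p = 0.0766) and Cfi 0.24 (adjusted p = 0.124).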
